A study of Mus musculus with 14 samples.

Results

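Most DMC1 hotspots of *Hells* CTRL testes had no counterpart in *Hells* cKO testes, and the hotspots described here are those of low and middle strength that lay in the body of protein-coding genes of up to 200 kb. They numbered 2627 of the 11133 *Hells* CTRL peaks, or 23.6% (95% exact interval 22.8 to 24.4), and held 13.9% of the summed strength of the list. The regions were chosen by measured values: an autosomal *Hells* CTRL peak had to have a strength of 338 or less and no *Hells* cKO peak center under 400 bp away, and its center had to lie over 1 kb from every transcript start, inside a protein-coding gene and inside none of span above 200 kb. The absence of a *Hells* cKO peak at these sites and their limited strength are therefore not findings. Of the 9463 autosomal *Hells* CTRL peaks of such strength, 97.2% had no *Hells* cKO center under 400 bp away, so such absence was common to nearly all peaks of this strength, inside and outside these genes. Of the 934 stronger autosomal peaks, 613 did have a *Hells* cKO center that close. The successive criteria left 10397 autosomal peaks, 9463 of that strength, 9198 without a *Hells* cKO center, 8605 away from starts, and the 2627 hotspots.

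In mouse meiosis, the zinc fingers of PRDM9 bind a DNA motif, and PRDM9 methylates histone H3 on the neighboring nucleosomes. SPO11 then forms DNA double-strand breaks (DSBs) there, and the resected single-stranded ends are coated by the strand exchange protein DMC1. HELLS, an ATPase that moves nucleosomes, is a partner of PRDM9. Where PRDM9 is missing, breaks are known to form at promoters and other open chromatin. Immunoprecipitation of DMC1 followed by sequencing of the single strands (ChIP-SSDS) gives a map of break sites.

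The libraries came from whole testes of adult mice that were *Hells* fl/Δ (*Hells* CTRL) or *Hells* fl/Δ with Stra8-iCre (*Hells* cKO), and both genotypes carry the Dom2 allele of *Prdm9*. By the methods, *Hells* CTRL mice were aged 5 weeks and gave 2 testes to each replicate, and *Hells* cKO mice were aged 9 weeks and gave 3, so age and genotype cannot be told apart. Stra8-iCre acts in male germ cells, a small fraction of mutant spermatocytes kept some HELLS according to the study, and in whole testis fewer cells and less signal per cell cannot be told apart. The 2 replicates of each genotype were merged into 1 list, which gives 1 strength per peak. No spread between mice is known, the intervals given here cover counting error only, and no test between the genotypes was made.

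The sequences at the strongest and the weakest of these hotspots are shown because they carry the motif that the hotspots share. The motif was learned from the 934 autosomal *Hells* CTRL peaks stronger than 338, none of which is among the 2627 hotspots. It is a matrix of 24 positions with a core of 12, in which G, G, T, C, T, C and C are each present in 60% or more of the sites, at core positions 1, 4, 6, 8, 9, 11 and 12. Each sequence is 60 bp of GRCm38.p6 (RefSeq) on the strand of the motif, 5′ to 3′, with the core of the best site in capitals. The first 8 are the strongest hotspots with a site that are not in an untranslated region, with 1 chromosome left out of the sequences shown, and the last 3 are among the weakest such hotspots, chosen at a tie by position (a hotspot in *Tedc1* also had a strength of 14, with a matrix score of 17.6).
Eefsec (chr6:88430502-88430561, plus strand, strength 338): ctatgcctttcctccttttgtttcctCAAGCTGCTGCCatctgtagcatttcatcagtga
Gpbp1 and Gm49496 (chr13:111471019-111471078, minus strand, strength 334): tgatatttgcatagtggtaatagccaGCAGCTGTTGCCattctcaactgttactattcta
Serhl (chr15:83094985-83095044, minus strand, strength 331): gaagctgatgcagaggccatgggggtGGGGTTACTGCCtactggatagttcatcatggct
Slc2a3 (chr6:122760511-122760570, minus strand, strength 329): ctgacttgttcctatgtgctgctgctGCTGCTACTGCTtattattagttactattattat
Tex14 (chr11:87420429-87420488, plus strand, strength 328): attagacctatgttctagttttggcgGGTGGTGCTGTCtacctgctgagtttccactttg
Pole (chr5:110288785-110288844, minus strand, strength 328): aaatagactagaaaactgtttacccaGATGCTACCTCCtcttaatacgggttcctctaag
Tshz3 (chr7:36703104-36703163, plus strand, strength 328): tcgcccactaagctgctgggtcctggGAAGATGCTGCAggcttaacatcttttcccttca
Rabl3 (chr16:37551264-37551323, plus strand, strength 327): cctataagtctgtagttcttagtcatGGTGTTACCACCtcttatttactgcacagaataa
March4 (chr1:72487425-72487484, plus strand, strength 11): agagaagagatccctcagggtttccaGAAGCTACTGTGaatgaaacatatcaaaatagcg
Btrc (chr19:45443434-45443493, plus strand, strength 13): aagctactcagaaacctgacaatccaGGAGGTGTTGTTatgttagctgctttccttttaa
Idnk (chr13:58161964-58162023, minus strand, strength 14): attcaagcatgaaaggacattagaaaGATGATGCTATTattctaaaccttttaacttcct
Of the 7 frequent letters, the site in *Serhl* had 7, the other strong hotspots shown had 6 each, and the weak sites in *March4*, *Btrc* and *Idnk* had 5, 4 and 5. The matrix score did not follow that count closely: it was 13.6 for the site in *Idnk*, and that in *Serhl* was close to the limit of 10.9, which 10% of the windows flanking the training peaks passed.

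A motif site lay within 250 bp of the center in 1959 of the 2627 hotspots, or 74.6% (72.9 to 76.2). In windows 2 kb to each side of the same centers the share was 11.2% (10.3 to 12.1), so sites were far more frequent at the centers than around them. Hotspots that met the other criteria inside longer genes had a site in 75.6% (73.5 to 77.6), and those outside protein-coding genes in 75.3% (73.9 to 76.6), with intervals that overlap that of the shorter genes. Autosomal *Hells* cKO peaks with no *Hells* CTRL center under 400 bp away had a site in 17.9% (17.3 to 18.5) of 15443. Their centers had 58.9% GC, against 41.5% in the flanks of the training peaks that set the score limit. The share that passes that limit in other sequence of such GC content is not known. The training peaks themselves, from which the matrix was made, had one in 81.3%.

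The sites clustered at the centers. The middle of the site was a median of 62 bp from the hotspot center (quartiles 29 and 110 bp), and 71.2% of the sites lay within 100 bp. In 4 classes of strength of about equal size, from the weakest (11 to 32) to the strongest (120 to 338), the share with a site was 71.7%, 72.6%, 80.2% and 73.8%, and it did not increase steadily. Over the 2627 hotspots, whose strengths the rule capped at 338, the Spearman correlation of strength with the best matrix score was 0.0711. Within that range the score ordered the strengths hardly at all, and the value does not cover stronger peaks. The share was 74.3% in introns, 77.3% in coding exons and 78.0% in untranslated regions, with overlapping intervals.

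**Figure D1:**
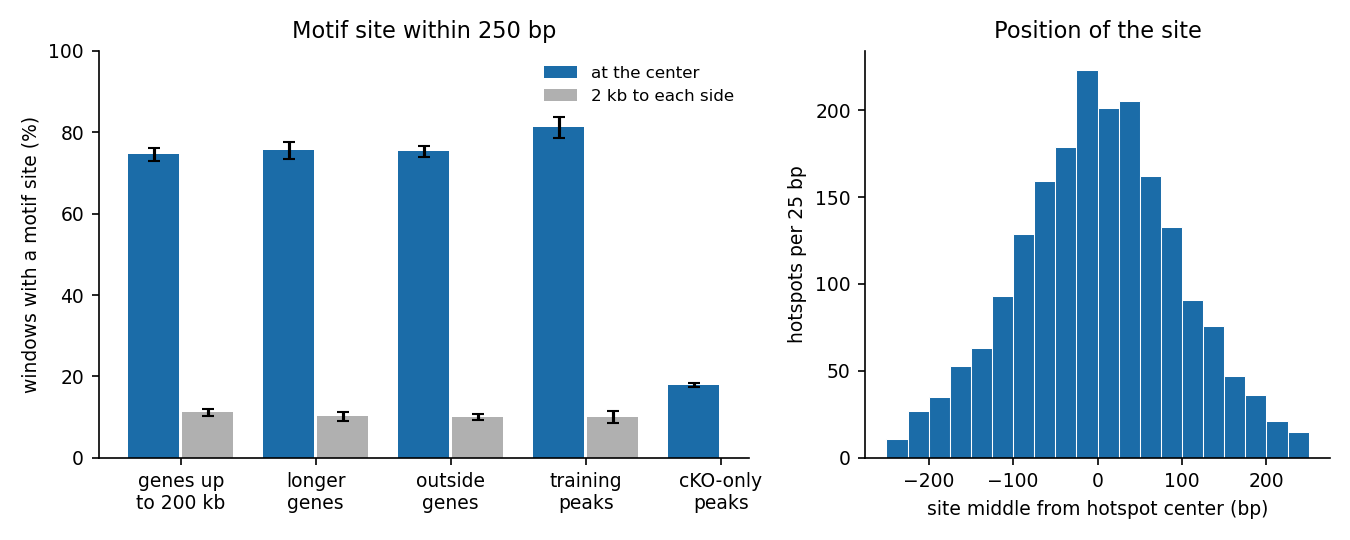
The left plot gives the percent of windows of 250 bp to each side of a center that hold a motif site (blue) and of windows 2 kb to each side (grey, not computed for cKO-only peaks), with exact 95% intervals. The bars of hotspots in genes up to 200 kb, in longer genes and outside genes stand at 74.6%, 75.6% and 75.3%. The right plot counts the 1959 sites by distance of the site middle from the hotspot center in bins of 25 bp, with most sites within 100 bp.

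The site lay on the coding strand of the host gene in 1021 of 1941 hotspots with a strand to compare, or 52.6% (50.4 to 54.8). That interval only just leaves out an even split. The share was 56.0% (51.5 to 60.5) in the weakest class of strength and 48.5% (43.9 to 53.1) in the strongest, and inside longer genes it was 50.9% (48.2 to 53.7), which overlaps both an even split and the value in shorter genes.

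The strengths ran from 11 to 338 with a median of 55 (quartiles 32 and 119), and 206 hotspots had a strength of 20 or less. The strength is the authors' score for a peak, a whole number whose read depth is unknown, and it chose the hotspots from above only. Hotspots in longer genes had a median of 56 and those outside genes 53. The deposited intervals had a median width of 1672 bp, and stronger hotspots were wider (Spearman correlation 0.415 over 2627 hotspots).

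The strongest hotspot lay in an intron of *Eefsec*, which encodes the elongation factor for selenocysteine, with a strength of 338. That of *Olfr523*, an olfactory receptor gene, had 336 and was centered in an untranslated region. The next hotspots, with strengths of 334 and 331, were in introns of *Gpbp1*, a transcription factor gene that overlaps *Gm49496*, and of *Serhl*, a serine hydrolase-like gene. A further hotspot of 331 lay in *Wdr33*, which encodes a polyadenylation factor. *Slc2a3*, the gene of the glucose transporter GLUT3, held a hotspot of 329. Hotspots of 328 lay in *Tex14*, needed for the bridges between germ cells, in *Pole*, the catalytic subunit of DNA polymerase epsilon, and in *Tshz3*, a zinc finger transcription factor. *Rabl3*, a Rab-like GTPase gene, had 327, and the ABC transporter gene *Abca9* and the ceramide transfer protein gene *Col4a3bp* had 325 each. These 12 hotspots all had a motif site, and 8 of their host genes had a *Hells* cKO peak within 1 kb of a start. In the whole set 74.6% of hotspots had a site and 64.7% of host genes had such a peak.

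The edges of the rule fell between near neighbors. In strength, *Eefsec* at 338 was inside and a peak in *Ddx6*, stronger by 1 unit, outside. The hotspot nearest to a *Hells* cKO center that was kept lay 433 bp from it, in the kinesin gene *Kif21a*, and a peak in *Dsp* at 375 bp was left out. A hotspot in *Acad12* 1002 bp from a start was kept and a peak in *Sh3yl1* at 995 bp was not. *Atp9b*, with a span of 199920 bp, was the longest host, and *Pcbp3*, at 200031 bp, was just too long.

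Most of the hotspots were intronic, in proportion to the sequence that introns offer. Of the 2627, 2329 centers (88.7%, 87.4 to 89.8) were in introns, which make up 88.7% of the eligible bases, that is, of the autosomal gene sequence that meets the limits on span and distance to starts. Coding exons held 110 centers (4.19%, against 4.12% of the bases), untranslated regions 132 (5.02%, against 5.23%) and other exons 56 (2.13%, against 2.01%). The density was 5.21 hotspots per Mb in introns (5.00 to 5.42), 5.30 in coding exons (4.35 to 6.38) and 5.01 in untranslated regions (4.19 to 5.94), so no difference between them was detectable at these numbers.

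The strongest hotspot centered in a coding exon was that of *Akap9*, a centrosomal and Golgi scaffold, with a strength of 304 and no motif site. *Ovgp1*, the oviductal glycoprotein, had 291. A center of 272 lay where *Emc1*, of the endoplasmic reticulum membrane complex, and *Ubr4*, a ubiquitin ligase, overlap. *Bard1*, the partner of BRCA1, had 267, and *Pcare*, a gene of the photoreceptor cilium, had 254. After *Olfr523*, the strongest hotspots in untranslated regions were those of the vomeronasal receptor gene *Vmn1r196* at 300 and of *Ccdc50* at 273.

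**Figure D2:**
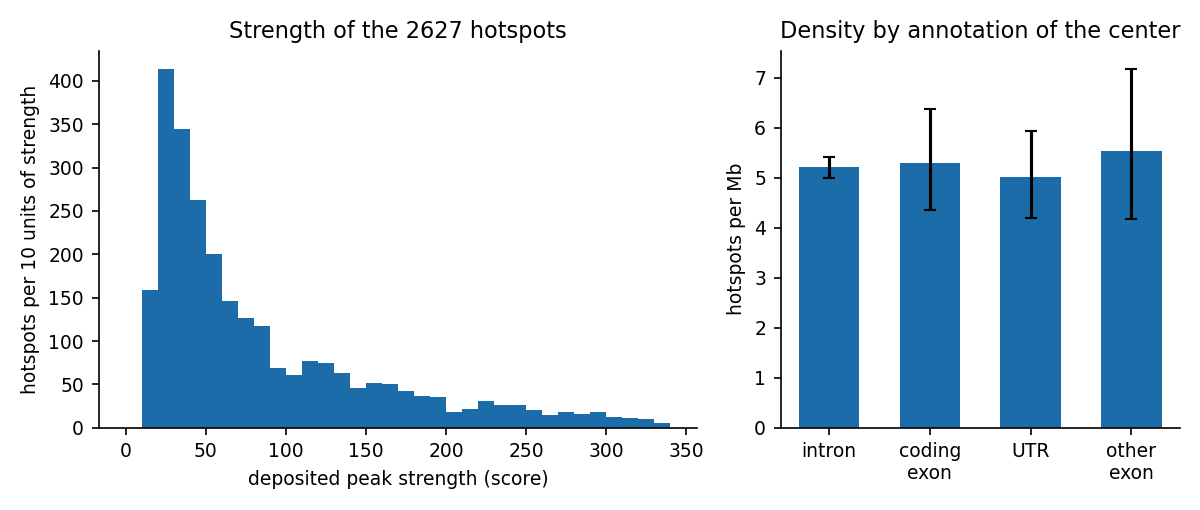
The left plot counts the 2627 hotspots by deposited strength in steps of 10, from 11 to 338, with most below 119. The right plot gives hotspots per Mb of eligible sequence by what the annotation holds at the center, with exact Poisson 95% intervals, and the intervals of introns (5.21), coding exons (5.30), untranslated regions (5.01) and other exons (5.53) overlap.

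Hotspots of this kind were denser in shorter genes than in the other sequence. The density was 5.21 per Mb (5.01 to 5.41) over 505 Mb of shorter genes, 4.41 (4.21 to 4.62) over 392 Mb of longer genes and 3.15 (3.06 to 3.25) over 1349 Mb outside protein-coding genes. Lower-case repeat sequence makes up 27.9%, 27.8% and 38.5% of these classes, and uniquely mapped reads are fewer in repeats. In sequence outside repeats, the densities were 5.87 (5.62 to 6.12), 5.08 (4.82 to 5.35) and 3.93 (3.80 to 4.07), in the same order. GC content differed too, at 43.7%, 41.3% and 41.0%, and its part in the result was not tested.

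Within shorter genes the density changed little with position. It was between 4.60 and 5.50 per Mb in 6 classes of distance from the nearest start, from 1 to 2 kb up to over 50 kb, with overlapping intervals. In 5 equal parts of the gene, from start to end, it was between 5.03 and 5.43. It increased with the span of the gene, from 3.47 (2.71 to 4.38) in genes of up to 10 kb to 4.80 (4.48 to 5.14) in those of 10 to 50 kb, 5.11 (4.75 to 5.48) in those of 50 to 100 kb and 5.71 (5.36 to 6.07) in those of 100 to 200 kb. By chromosome it went from 4.19 (3.50 to 4.96) on chromosome 9 to 6.41 (5.32 to 7.66) on chromosome 16.

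**Figure D3:**
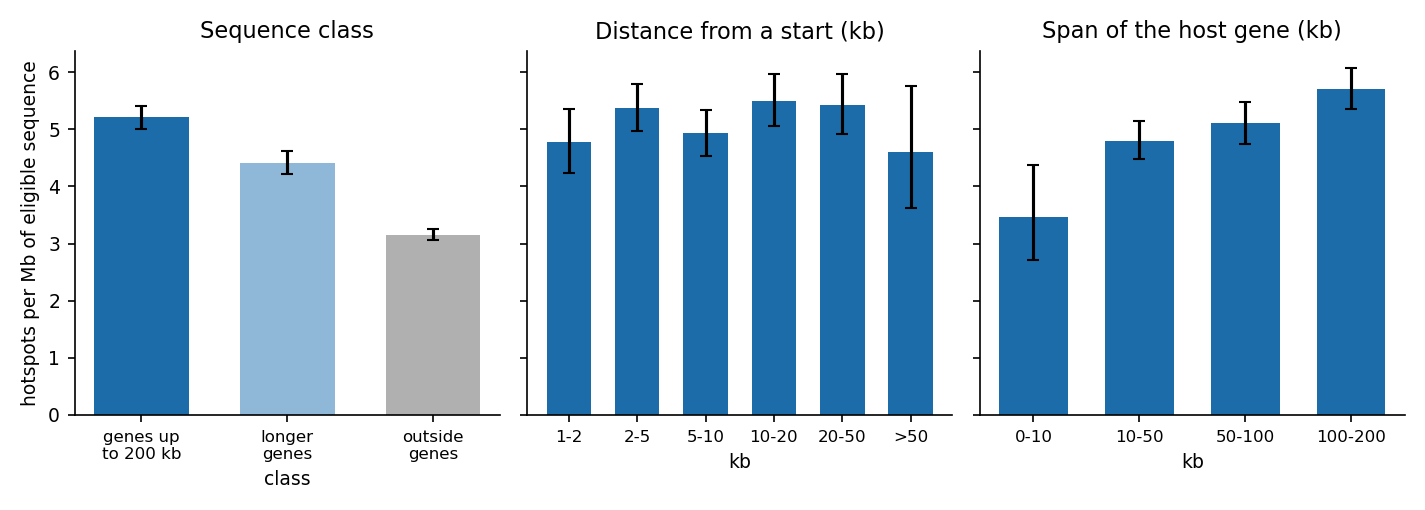
Bars give hotspots per Mb of eligible sequence with exact Poisson 95% intervals, by sequence class (left), by distance of the center from the nearest transcript start in kb (middle) and by span of the host gene in kb (right). Shorter genes stand at 5.21, longer genes at 4.41 and sequence outside genes at 3.15, and the density by span increases from 3.47 to 5.71.

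The hotspots fell in 2251 of 19854 autosomal protein-coding genes of up to 200 kb (11.3%). Of these host genes, 1890 held 1 hotspot, 309 held 2, 40 held 3, 4 held 4 and 8 held 5, and 57 hotspots lay in 2 overlapping genes. The hosts were long for this class, with a median span of 65.3 kb against 16.2 kb for all these genes.

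The genes with 5 hotspots were *Rps6ka5*, *Grin3a*, *Ahi1*, *Snx24*, *Arhgap21*, *Tbl1xr1*, *Stk24* and *Ankrd17*. In *Rps6ka5*, the kinase MSK1, the strengths along the chromosome were 177, 89, 155, 196 and 65. In *Grin3a*, a subunit of NMDA receptors, they were 224, 134, 20, 66 and 120, and the first lay in a coding exon. In *Ahi1*, a gene of the primary cilium, they were 146, 56, 47, 19 and 258. Hotspots of the same gene thus differed widely in strength, from 19 to 258 in *Ahi1*. *Stk24*, a protein kinase gene, had 159, 15, 53, 52 and 31, and its closest pair lay 2196 bp apart. *Crim1* and *Pip4k2a*, a lipid kinase gene, had 4 hotspots each. Of these 10 genes, *Grin3a*, *Stk24* and *Pip4k2a* had no *Hells* cKO peak at a start.

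Gene families were compared as hosts, and the families were defined by symbol prefix with earlier results known. Of all autosomal protein-coding genes of up to 200 kb, 11.3% were hosts. Over all these genes there were 5.09 hotspots per Mb (4.89 to 5.28). Each of the 2627 hotspots was counted once there, over 517 Mb in which sequence shared by overlapping genes was counted for each gene. Genes with the kinesin prefix held 14 hotspots in 9 of 40 genes, or 7.05 per Mb (3.85 to 11.8), with 3 of them in *Kifap3*, whose product binds kinesin and is not a motor. Solute carriers held 55 in 49 of 355 genes (4.62, 3.48 to 6.02), and zinc finger proteins 35 in 32 of 377 (4.28, 2.98 to 5.95). The intervals of the kinesin, solute carrier and zinc finger genes all hold the value of all genes. The density was lower in olfactory receptor genes, with 10 hotspots in 10 of 1128 (2.23, 1.07 to 4.10), in vomeronasal receptor genes, with 5 in 5 of 329 (1.11, 0.359 to 2.58), and in cytochrome P450 genes, with 4 in 4 of 100 (1.65, 0.450 to 4.23). These families hold near-identical copies, where lists made from uniquely mapped reads are uncertain. Gene span was not matched in this comparison, and all genes of up to 10 kb had 3.47 per Mb (2.71 to 4.38). The intervals of the olfactory receptor and cytochrome P450 genes overlap that one, and the interval of the vomeronasal receptor genes does not.

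Of 86 genes of meiotic recombination and synapsis, 12 were hosts, with 1 hotspot each, or 4.33 per Mb (2.24 to 7.57), near the value of all genes. The checkpoint kinase gene *Chek2* had a hotspot of 307. *Sun1*, which ties telomeres to the nuclear envelope, had 220, *Sycp2*, of the axial element, 207, and *Msh4*, which promotes crossovers, 117. Weaker hotspots lay in *Rad54b* (94), the cohesin gene *Smc3* (57), the nuclease scaffold *Slx4* (54), *Rnf212b* (41), *Top3a* (40), the telomere attachment gene *Majin* (26), *Rpa1* (22), whose product binds single-stranded DNA, and *Ankrd31* (15). All 12 were intronic, as were 88.7% of the whole set, and the hotspots of *Sycp2* and *Ankrd31* had no motif site. Each of the 12 genes had a *Hells* cKO peak at a start, as did 63 of the 74 listed genes without such a hotspot.

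Beyond this list too, host genes often had a *Hells* cKO peak at their own start, which the rule did not use. A peak center lay within 1 kb of a start of 1457 of the 2251 host genes, or 64.7% (62.7 to 66.7), against 41.3% (40.5 to 42.0) of genes with no *Hells* CTRL center. Much of that gap went with gene span. For genes of 10 to 50 kb the share of hosts was 61.5% (58.1 to 64.9), against 3818 of 7633 genes with no *Hells* CTRL center (interval 48.9 to 51.1%). For 50 to 100 kb the shares were 71.8% (68.2 to 75.2) and 59.1% (56.7 to 61.6). For 100 to 200 kb they were 64.0% (60.4 to 67.5) and 58.5% (54.5 to 62.5), with intervals that overlap.

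**Figure D4:**
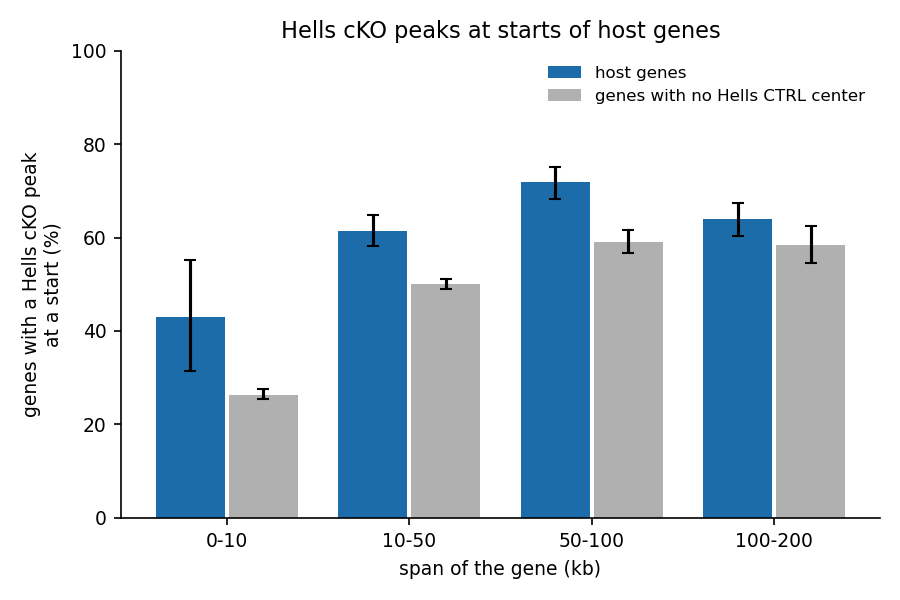
Bars give the percent of genes with a *Hells* cKO peak center within 1 kb of a transcript start, by span of the gene in kb, for host genes (blue) and for genes with no *Hells* CTRL center (grey), with exact 95% intervals. Host genes stand above the others in each span class, from 43.1% against 26.4% up to 10 kb to 64.0% against 58.5% at 100 to 200 kb, where the intervals overlap.

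The share of hotspots in such host genes was 59.9% (56.1 to 63.5) in the weakest class of strength and 72.3% (68.6 to 75.7) in the strongest. Hotspots whose host had a *Hells* cKO peak at a start had a median strength of 60, against 50 for the 895 others. A motif site was less frequent in the former, at 72.7% (70.6 to 74.8), than in the latter, at 78.1% (75.2 to 80.8).

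The nearest *Hells* cKO center was a median of 29978 bp away (quartiles 13421 and 63023 bp), and for 2053 hotspots (78.1%, 76.5 to 79.7) that nearest peak was itself at a transcript start. In longer genes the median was 93020 bp and the share 48.5% (46.1 to 50.9). Outside protein-coding genes they were 70576 bp and 49.0% (47.4 to 50.5). The rule sets these groups by gene span and gene membership, and a short span bounds the distance from a center to a transcript start. The differences between the groups are therefore in part set by the rule, and how large that part is was not tested. Only 208 hotspots (7.92%) had a *Hells* cKO center within 5 kb, and 13 within 1 kb. After *Kif21a*, the nearest were in *Map2k1*, the kinase MEK1 (513 bp), *Prokr2*, a prokineticin receptor (583 bp), *Sash1* (634 bp) and the collagen gene *Col9a2* (650 bp). These 5 hotspots all had a motif site, as did 74.6% of the whole set.

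For 2 host genes, the control-only hotspot is set beside the *Hells* cKO peak at the start of the same gene. These genes were named after their values were seen. The rule kept hotspots away from starts and from *Hells* cKO centers, so a difference in CpG is in part set by it. For *Gpbp1*, the *Hells* cKO peak at the start had a deposited strength of 141 and 72 CpG within 250 bp of its center, and the intronic hotspot 18225 bp away had 3. For *Serhl*, the *Hells* cKO peak had a strength of 11 and 24 CpG, and the hotspot 5683 bp away had 1. Both sequences are 60 bp at the center of the *Hells* cKO peak in GRCm38.p6 (RefSeq), plus strand, with each CG in capitals. The peak center lay 741 bp from a start for *Gpbp1* and 172 bp for *Serhl*, so the bases shown do not reach the start itself.
Gpbp1 start (chr13:111489257-111489316): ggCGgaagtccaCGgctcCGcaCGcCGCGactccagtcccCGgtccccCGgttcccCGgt
Serhl start (chr15:83089304-83089363): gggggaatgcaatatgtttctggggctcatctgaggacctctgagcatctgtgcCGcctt
The first holds 9 CG and the second 1, so the CpG of the peak at the *Serhl* start lay outside the bases shown. Strengths of the lists are not on a common scale.

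The hotspots as a set were not CpG-rich. They had 5.14 ± 3.38 (SD, 2627 regions) CpG within 250 bp of the center and their flanks 2 kb away 5.30, some of which reach close to starts. The center had more CpG than the mean of its flanks in 46.5% of hotspots and fewer in 47.9%. The rule left out centers near starts and near *Hells* cKO centers, so low CpG is in part set by it. The 934 stronger autosomal peaks, chosen without those criteria, had 4.32. Hotspots in longer genes had 4.36 and those outside genes 3.88, while the *Hells* cKO-only peaks had 31.5. All eligible sequence of shorter genes, of longer genes and outside genes had 4.92, 3.89 and 3.59 per window of that size, in the same order as the hotspots. In shorter genes CpG had a local rise, to 1.06 and 1.04 per 100 bp in the 100 bp before and after the hotspot center. The bins between 300 and 1000 bp on either side had 0.931 to 0.987, and bins farther out reached 1.12, above the value at the center. GC content peaked at 44.9% in the 100 bp before the center and was 43.0% between 400 and 500 bp after it. In the same bins GC was 43.5% and 41.4% in longer genes, and 42.9% and 41.2% outside genes. CpG per 100 bp was 0.920 and 0.794 there in longer genes, and 0.776 and 0.736 outside genes. The center base was in repeat sequence in 18.8% (17.3 to 20.4), against 25.4% (24.2 to 26.6) of flank positions.

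**Figure D5:**
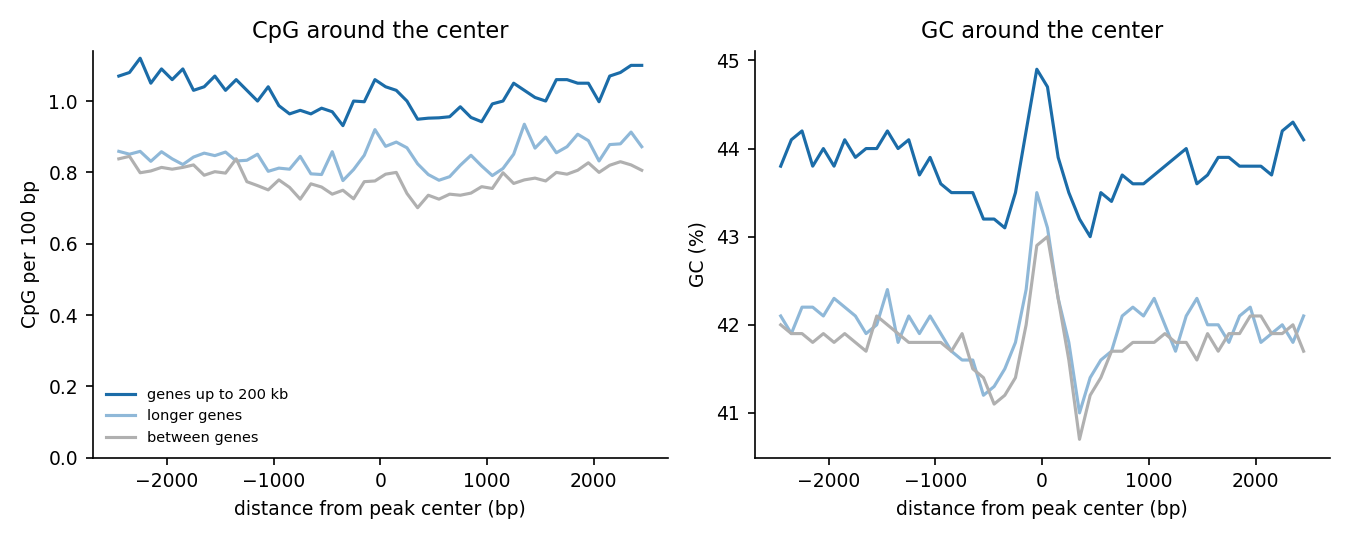
Lines give CpG per 100 bp (left) and GC percent (right, axis not from 0) in bins of 100 bp around the center, averaged over hotspots in genes up to 200 kb (dark blue), in longer genes (light blue) and outside genes (grey). In the shorter genes CpG stays between 0.931 and 1.12 per 100 bp, with a local rise to 1.06 just before the center, where GC reaches 44.9%. The other lines rise in GC at the center too.

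CpG-rich hotspots were few. The largest count was 24, in *Itpr3*, a receptor for inositol trisphosphate, at a strength of 60. *Mdga1*, the aggrecanase gene *Adamts5* and *Enoph1*, of the methionine salvage pathway, had 22 each, with strengths of 66, 52 and 28, and *Ywhag*, a member of the 14-3-3 family, had 21 at a strength of 189. Of these 5, the hotspot in *Enoph1* had no motif site. In the whole set 78 hotspots had no CpG in that window, and the Spearman correlation of strength with CpG was -0.0350 over 2627 hotspots.

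The nearest other *Hells* CTRL peak was a median of 62714 bp away, and within 10 kb for 191 hotspots (7.27%). In longer genes the median was 66929 bp, and outside genes 88243 bp.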

How the data were processed

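DMC1 ChIP-SSDS of *Hells* CTRL and *Hells* cKO testes was analysed from the 2 peak lists that the authors deposited, 1 per genotype from 2 merged replicates. The authors trimmed reads to 50 bp, kept those of Phred score above 28 and uniquely mapped them to GRCm38/mm10. They called peaks with MACS 2.0.10 and gave each a strength, the deposited score. Their methods describe it as a background-normalized fragment count, but it is a whole number of unknown depth. The authors describe no valid scaling between the genotypes, so strengths were compared within a list. The 5hMeDIP libraries were not analysed here.

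Peak centers were interval midpoints, annotated with GENCODE M21 on GRCm38. Members and lists were chosen with earlier results of these data known. The motif matrix was learned in 30 rounds from the 934 training peaks, seeded by the 8-bp word most enriched at centers among words in at least 50 training windows. Shares have Clopper-Pearson and densities exact Poisson 95% intervals. Regions are not replicates, so no p-value is given. Regions named were the 12 strongest, the 10 hosts with most hotspots, the strongest in coding exons (5) and untranslated regions (3), the 5 with most CpG, the 5 nearest to a *Hells* cKO center, those at each limit and those in meiosis genes; other genes were named by family prefix. *Kifap3* in the families, and the 2 starts shown as sequence, were named after their values were seen. The result of 1 gene family is not reported here.

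The alternatives were a distance limit of 999 bp, any overlap of intervals, a reach of 2 kb, a span limit of 100 kb, the weaker hotspots, other motif windows, score limits and training peaks, other CpG windows and other reaches to a host's start. The code was tested on simulated sequences. The tools were matplotlib 3.10.9, scipy 1.17.1, pandas 2.3.3 and numpy 2.4.6, under Python 3.11.15.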

Additional observations from a re-analysis of the deposited data

How the results depend on the processing

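Most of the values stayed within their interval, or within 1.5 times for counts and medians, under the alternatives: 44 of 59 did and 15 did not. A span limit of 100 kb gave 1628 hotspots at 4.93 per Mb with 85.2% in introns. The weaker hotspots alone, of strength 55 or less, numbered 1326 at 2.63 per Mb with a median strength of 32, 72.2% with a motif site and 61.9% of hosts with a *Hells* cKO peak at a start. A motif site was found in 62.0% with a window of 100 bp and in 61.9% with a score limit that 5% of flanks passed. CpG averaged 2.10 within 100 bp and 9.93 within 500 bp. A reach of 500 bp put a *Hells* cKO peak at a start of 60.9% of hosts. Density outside repeats, added after seeing the data, was 5.87 per Mb.

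Learning the matrix from only the 613 training peaks with a *Hells* cKO partner gave a site in 9.40% of hotspots, the largest change. In that smaller set the requirement of 50 windows was met by a seed word, AAAGAAAA, that lay in 50 center and 104 flank windows, and the matrix was A-rich. After this value was seen, the requirement was changed to 5% of the training windows. The seed was then GAAGCTAC, as with all training peaks, and the share was 73.8%, while with all training peaks it stayed 74.6%. The motif result therefore depends on the seed requirement when fewer peaks are used for training.

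No paired analysis was possible because the replicates of each genotype were merged into 1 list, and for the same reason leaving out a replicate was not possible. Read depth is unknown, so weak peaks missed in either list cannot be counted.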
